A study of Mus musculus with 16 samples.

Results

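The Kruppel-like factors (KLF) and Sp factors are one family of transcription factors that share C-terminal zinc fingers and bind CACCC and GC-rich elements in DNA. The 8 genes described here are Klf1, Klf2, Klf6, Klf9, Klf10, Klf11, Klf16 and Sp4, out of a family list of 26 mouse genes. They were taken as named genes, with every row they have in the expression tables and every binding peak whose nearest gene they are. Of the 8 genes, 6 had a row among the 1556 genes of the table of newly made RNA and 1 had a row among the 793 genes of the fetal liver table. They were the nearest gene of 12 of 2758 Nan-KLF1 peaks and of 16 of 5326 KLF1 peaks.

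KLF1 is the founding erythroid member of the family and activates globin, heme and red cell membrane genes. Nan is a mutation in the zinc fingers of KLF1 that changes which DNA it binds, and mice with 1 Nan allele are anaemic. Family members compete for the same elements, some as activators and some as repressors, so the level of each can bear on what the others do at a shared site.

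The series holds 16 samples. K1-NanER cells carried a tamoxifen-inducible fusion of Nan-KLF1 with the oestrogen receptor (ER), K1-ER cells carried the same kind of fusion of KLF1, and K1 cells were the parental line; all are immortalised erythroblasts null for KLF1. RNA made during 1 h with 500 uM 4-thiouridine (4sU) was sequenced in 2 libraries each of K1-NanER (clones B and X), K1-ER (clones A and C) and K1, all given 200 nM 4-hydroxytamoxifen per the labels, although the K1 column of the table does not name it. Chromatin was immunoprecipitated with a KLF1 antibody after 3 h of tamoxifen and sequenced as 1 ChIP library per factor, pooled from 3 replicates, with 1 input library each. Polyadenylated RNA came from whole fetal livers at embryonic day 14.5, 3 Nan/+ and 3 Klf1+/+ (wild type), after removal of globin RNA. Expression is given as 1 FPKM value per group (fragments scaled to gene length and library size), so no spread between replicates can be shown, and the depth of the libraries is unknown. Comparing clones with parental cells puts clonal differences into every value.

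As a check of the labels, Esr1, whose ligand-binding part the fusions carry, stood at 70.3 (K1-NanER), 136 (K1-ER) and 2.41 (K1) FPKM in the authors' deposited table. Esr1 was thus lower in K1-NanER than in K1-ER, and the part of this difference in later ratios between the lines was not tested. Of 10 erythroid markers 8 were in the 4sU table, of which 6 rose in K1-NanER and 8 in K1-ER; their summed level was 1151 (K1-NanER), 5239 (K1-ER) and 314 (K1) FPKM. Most of that sum in K1-ER was Hbb-bh1, an embryonic globin gene; without it the sums were 733 (K1-NanER), 1064 (K1-ER) and 191 (K1) FPKM. Of the 8 markers 3 were higher in K1-NanER than in K1-ER: Alas2, Hbb-y and Tfrc. The part of erythroid maturity in the values of the family was not tested. Klf1 RNA was not analysed here, since neither expression table lists it.

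The sequences that carry the binding results are the central motifs that the peak lists give for each peak. Each has 8 bases, and the base at position 4 is in capitals. They are shown for the strongest or closest peaks of the members whose new RNA was called, and for Sp4, whose Nan-KLF1 promoter peak has no central motif.

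Klf10 promoter, Nan-KLF1 and KLF1: ccaCgccc
Klf11 intron, Nan-KLF1 and KLF1: ccaCgccc
Klf9 distal, Nan-KLF1, stronger peak: cccTgccc
Klf9 distal, Nan-KLF1, weaker peak: cccCgccc
Klf9 distal, KLF1: cccCaccc
Klf16 intron, Nan-KLF1: ccaAgccc
Klf16 promoter, KLF1: cccCtccc
Sp4 intron, Nan-KLF1: cccCtccc
Sp4 UTR, KLF1: cccCaccc
Sp4 promoter, KLF1: ccaCgccc

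Position 4 was C in 6 of 8 Nan-KLF1 peaks of members that had a motif, against 50.3% of such peaks in the whole Nan-KLF1 list. It was C in 12 of 14 KLF1 peaks of members, against 80.2% of the KLF1 list. The 6 Nan-KLF1 peaks include one in the Klf1 coding sequence (cccCtccc), where reads from the introduced fusion cannot be told apart. The 8 bases shared by Klf10 and Klf11 stood in 2 of 12 Nan-KLF1 peaks of members (5.98% of the whole list) and in 5 of 16 KLF1 peaks (17.4% of the list).

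The members whose newly made RNA was called had risen, as had most called genes of the table. A gene was called when its q value in the authors' deposited table was at most 0.05. In K1-NanER against K1, 5 members rose and none fell; 47.4% of the genes in the table were called as rises and 28.3% as falls. In K1-ER against K1, 4 members rose and none fell; 37.9% of the table were called as rises and 11.5% as falls. Rises thus made up 62.6% of all calls in K1-NanER and 76.7% in K1-ER. Every gene in that table was called in at least 1 of the comparisons, so these shares are those of a list already chosen for change. The median log2 fold change of the 6 listed members was 2.28 in K1-NanER, against 1.04 over the whole table, and 2.31 in K1-ER, against 0.72. These medians include Klf2, whose K1 level is a floor value of 0.1 FPKM. Over the other 5 members they were 2.16 in K1-NanER and 2.02 in K1-ER. Over all 9 family genes with a row the medians were 1.58 in K1-NanER and 1.64 in K1-ER, lower than those of the members. Both comparisons share the K1 libraries, and the median of all genes in the table is itself above 0.

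The 6 members fell into 3 patterns of call. Klf9, Klf10 and Klf11 rose in both lines, Klf2 and Klf6 were called in K1-NanER and not in K1-ER, and Klf16 was called in K1-ER and not in K1-NanER. For Klf2 the lack of a call in K1-ER may mean that it was not tested there. The lines were not tested against each other, so a call in 1 line does not show that they differ.

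**Figure D1:**
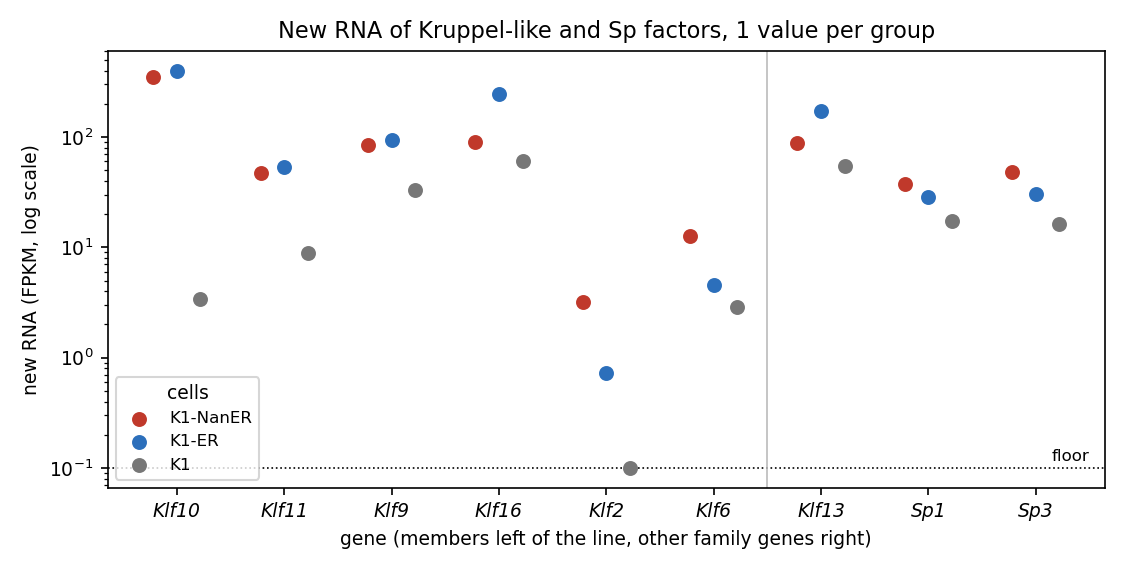
New RNA of 9 family genes (FPKM, log scale) in K1-NanER, K1-ER and parental K1 cells, each point being the authors' 1 value per group. Klf10 lies at 347 (K1-NanER), 399 (K1-ER) and 3.39 (K1) FPKM, the widest gap over K1 of the 9 genes.

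Klf10 and Klf11 are related repressors that were described as early genes of transforming growth factor beta (TGF-beta) signalling. For Klf10 (chr15:38224168-38230462, mm9) the authors' deposited table gives 347 (K1-NanER), 399 (K1-ER) and 3.39 (K1) FPKM. Its log2 fold change was 6.67 in K1-NanER and 6.88 in K1-ER (q = 0.00213 for each) in the authors' deposited table. Both lines were thus far above K1, and the log2 ratio of K1-NanER to K1-ER was -0.20, near the median of -0.26 over the whole table. The q of 0.00213 comes from the smallest p-value in the authors' deposited table, 5e-05, which 451 genes share in K1-NanER and 373 in K1-ER. Among the 1428 genes off the floor in all 3 groups, its rise ranked 1 in K1-NanER and 2 in K1-ER.

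For Klf11 (chr12:25336236-25347647) the authors' deposited table gives 46.8 (K1-NanER), 53.3 (K1-ER) and 8.81 (K1) FPKM. The log2 fold change was 2.41 in K1-NanER and 2.60 in K1-ER, with q = 0.00213 for each, in the authors' deposited table. The log2 ratio of K1-NanER to K1-ER was -0.19, again near the median of the table.

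Klf9 is a repressor known to respond to hormones such as glucocorticoids and thyroid hormone. For Klf9 (chr19:23215716-23241401) the authors' deposited table gives 85.2 (K1-NanER), 92.9 (K1-ER) and 33.0 (K1) FPKM. Its log2 fold changes of 1.37 in K1-NanER and 1.49 in K1-ER (q = 0.00213 for each, the authors' deposited table) were the smallest of the members called in both lines. The median called rise was 1.63 in K1-NanER and 1.89 in K1-ER, so Klf9 lay under it in both.

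Klf16 is a short member of the family that represses through GC-rich sites. For Klf16 (chr10:80029866-80040041) the authors' deposited table gives 89.6 (K1-NanER), 247 (K1-ER) and 60.8 (K1) FPKM. It rose in K1-ER, with a log2 fold change of 2.02 (q = 0.00213), and had a log2 fold change of 0.56 in K1-NanER (q = 0.346), in the authors' deposited table. The level in K1-NanER was 0.363 times that in K1-ER, a log2 ratio of -1.46 that was not tested; 11.6% of the table had a lower ratio. The median log2 ratio over the table was -0.26, as given for Klf10.

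Klf2 is best known for keeping blood vessel lining and T cells quiescent, and in mouse embryos it also acts on embryonic globin genes. Klf2 (chr8:74842961-74845553) had 3.18 (K1-NanER), 0.731 (K1-ER) and 0.1 (K1, the floor) FPKM in the authors' deposited table. That floor is the K1 value of 101 genes in the table, and a fold change against it rests on the floor, so none is read here. The plot of log2 fold changes shows the deposited ones. Klf2 was called in K1-NanER (q = 0.00213) and not in K1-ER (q = 1) in the authors' deposited table. It was the lowest of the 6 members in each of the 3 groups.

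Klf6 is a broadly expressed growth regulator that mouse yolk sac blood formation needs. For Klf6 (chr13:5860735-5869639) the authors' deposited table gives 12.7 (K1-NanER), 4.58 (K1-ER) and 2.86 (K1) FPKM. It rose in K1-NanER, with a log2 fold change of 2.16 (q = 0.00213), and had a log2 fold change of 0.68 in K1-ER (q = 0.465), in the authors' deposited table. The level in K1-NanER was 2.78 times that in K1-ER, a log2 ratio of 1.48 that was not tested. For Klf2 the log2 ratio was 2.12, or 1.27 when 1 FPKM was added to both levels.

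FPKM is scaled to gene length, and levels were set side by side as a description only. Whether other differences between genes bear on these levels of new RNA was not tested. From high to low the members ran Klf10, Klf16, Klf9, Klf11, Klf6 and Klf2 in both induced lines, and Klf16, Klf9, Klf11, Klf10, Klf6 and Klf2 in K1. Klf10 was thus above only Klf6 and Klf2 in K1 and at the top in both lines. Klf16 and Klf9 lay close together in K1-NanER, at 89.6 and 85.2 FPKM in the authors' deposited table; with 1 value per group no neighbours in these orders can be said to differ.

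**Figure D2:**
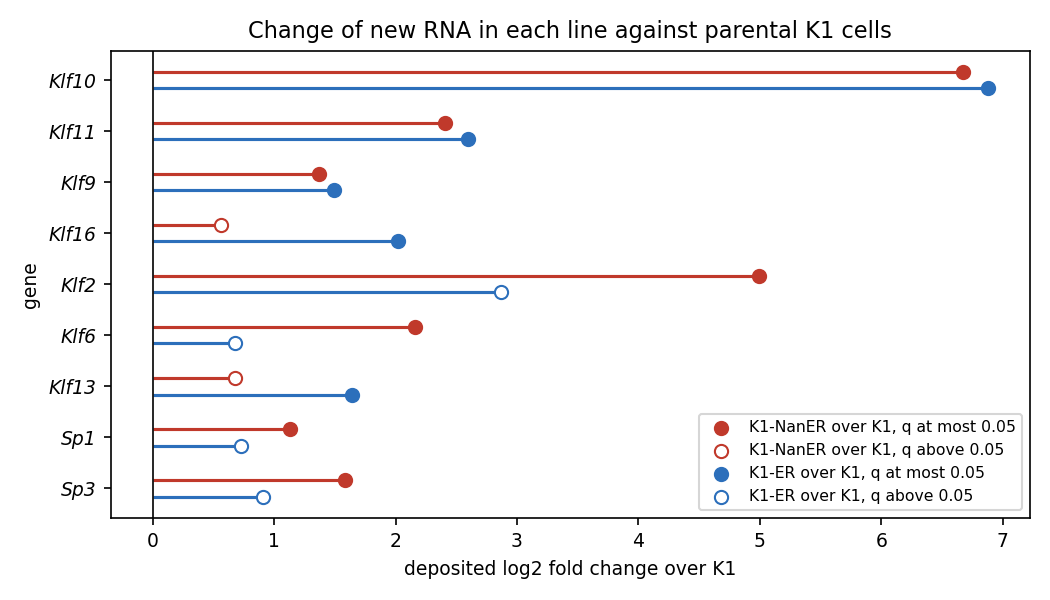
Deposited log2 fold change over K1 for 9 family genes, K1-NanER in red and K1-ER in blue; filled points have a q of at most 0.05, and Klf2 is drawn against the K1 floor of 0.1 FPKM. Lines of Klf10, Klf11 and Klf9 are of near equal length in both lines, that of Klf16 is longer in K1-ER and those of Klf2 and Klf6 in K1-NanER.

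The other family genes fell into the same kinds of call. For Klf13, which mouse erythroid maturation needs, the authors' deposited table gives 88.1 (K1-NanER), 172 (K1-ER) and 55.1 (K1) FPKM. It rose in K1-ER (log2 fold change 1.64, q = 0.00213) and was at 0.68 in K1-NanER (q = 0.273) in the authors' deposited table. Sp1, a widely expressed activator at GC boxes, stood at 37.5 (K1-NanER), 28.5 (K1-ER) and 17.2 (K1) FPKM, and rose in K1-NanER (q = 0.0168) but was not called in K1-ER (q = 0.184), in the authors' deposited table. Its relative Sp3 stood at 48.6 (K1-NanER), 30.5 (K1-ER) and 16.2 (K1) FPKM, with a called rise in K1-NanER (q = 0.00213) and none in K1-ER (q = 0.0715), in the authors' deposited table. In all, 9 of the 26 family genes had a row, of which 7 rose in K1-NanER and 5 in K1-ER, and none fell, beside the table's 47.4% and 37.9% rises and 28.3% and 11.5% falls. The 17 others had no row, which in a list of called genes gives no level.

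Genes with the most similar pair of log2 fold changes were looked up among 1427 genes off the floor, over the 3 groups. Klf10 had no close neighbour: the nearest were Rrad and Esr1, at distances of 2.00 and 2.10 log2 units. Part of Esr1 is carried by the introduced fusions, so its value is not read as a response. Kpna2 and Exoc5 lay nearest to Klf6, at 0.04 and 0.08 log2 units. Csf2rb and Phf13 lay nearest to Klf11, at 0.09 and 0.11, Ap5b1 and Usp22 to Klf9, at 0.09 each, and Ctnnal1 and Ebp to Klf16, at 0.08 and 0.09. Kpna2 had 126 (K1-NanER), 44.9 (K1-ER) and 27.6 (K1) FPKM in the authors' deposited table, which shows the Klf6 pattern at a higher level.

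Because Klf10 and Klf11 belong to TGF-beta signalling, a list of 20 genes of that pathway was counted. In K1-NanER 4 of its 8 listed genes rose, against 47.4% of the table, and in K1-ER 5 rose, against 37.9%; none fell in either, against 28.3% of the table in K1-NanER and 11.5% in K1-ER. The calls in K1-NanER were the receptor Tgfbr1 (9.22 FPKM against 3.53 FPKM in K1), the signal carriers Smad2 (6.63 against 2.68) and Smad4 (11.9 against 4.62), and the repressor Ski (8.68 FPKM in K1-NanER, with q = 0.0498), in the authors' deposited table. In K1-ER they were the ligand Tgfb1 (125 FPKM against 24.4 FPKM in K1), the target Id1 (92.0 against 19.4), the inhibitor Smad6 (54.5 against 14.0), the co-receptor Tgfbr3 (3.52 against 1.13) and Ski (9.46), as the authors' deposited table has them. Ski, which the authors' deposited table has at 3.90 FPKM in K1, was the 1 gene of the list called in both lines. The list's median log2 fold change was 1.15 in K1-NanER, against 1.04 over the table, and 1.46 in K1-ER, against 0.72.

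Binding was then read at each member, using the fold enrichment of ChIP over input that the authors give for each peak. Peaks were assigned to 6 members in at least 1 list: Klf1, Klf9, Klf10, Klf11, Klf16 and Sp4. Klf1 was among them only through Nan-KLF1 peaks in coding sequence, where reads of the transgene cannot be told apart. Of the 6 members with a 4sU row, 4 had a Nan-KLF1 peak and 4 had a KLF1 peak. Among all genes with a 4sU row, 26.5% had a Nan-KLF1 peak and 45.8% had a KLF1 peak. Klf2 and Klf6 were the nearest gene of no peak in either list. The median fold enrichment was 107 in the Nan-KLF1 list and 75.6 in the KLF1 list, and 6 of 12 Nan-KLF1 and 11 of 16 KLF1 peaks of members were at or above the median of their own list. Each factor had 1 pooled library, so the presence of a peak has no replicate check, and fold enrichment was not compared between factors.

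**Figure D3:**
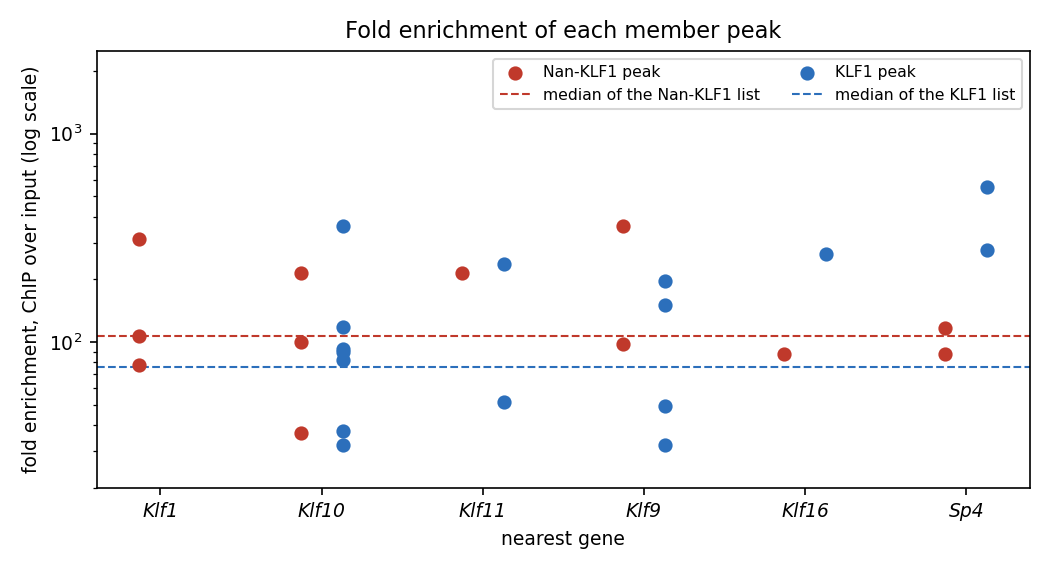
Fold enrichment (ChIP over input, log scale) of every peak whose nearest gene is a member, Nan-KLF1 in red and KLF1 in blue; dashed lines are the median of each whole list, 107 and 75.6. The highest points are the Klf9 peak at 361 for Nan-KLF1 and the Sp4 promoter peak at 557 for KLF1.

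At Klf10 both factors had a strong promoter peak. The Nan-KLF1 peak (chr15:38230301-38231646, fold enrichment 214) lay wholly inside the KLF1 peak (chr15:38228417-38231827, fold enrichment 362). Their summits were 18 bp apart, 0.742 kb and 0.724 kb outside the gene's edge. KLF1 had 6 further peaks, with summits 12.6 to 84.1 kb from the same edge and fold enrichments of 32.0 to 118. Nan-KLF1 had 2 further peaks, at 84.2 and 91.0 kb on the same side. The Nan-KLF1 peak at 84.2 kb (fold enrichment 101) overlapped the KLF1 peak at 84.1 kb (37.3), with summits 71 bp apart. With 7 peaks, Klf10 was among 4 of the 3809 genes named in the KLF1 list that had as many, while 2910 had 1 peak.

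At Klf11 both factors had a peak in the first part of the gene. The Nan-KLF1 peak (chr12:25336540-25337140, fold enrichment 214) lay inside the KLF1 peak (chr12:25336354-25337471, fold enrichment 237). Both are classed as intronic, with summits 42 bp apart, 0.502 kb and 0.460 kb from the lower edge of the gene. KLF1 had another, weaker peak 17.4 kb outside that edge, at a fold enrichment of 51.8 and without a motif. Klf10 and Klf11 thus shared the central motif ccaCgccc in peaks of both factors.

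At Klf9 the peaks lay outside the gene, below its lower edge. Nan-KLF1 had a strong peak at 7.07 kb (chr19:23208437-23208984, fold enrichment 361) and a weaker one at 5.81 kb (chr19:23209510-23210519, 97.5). A single broad KLF1 peak (chr19:23208364-23211091, fold enrichment 196) covered both, with its summit at 5.70 kb. Its summit was 112 bp from that of the weaker Nan-KLF1 peak and 1375 bp from that of the stronger one. The stronger Nan-KLF1 peak had T at position 4 of its motif, whereas the weaker one and the KLF1 peak had C there. KLF1 had 3 further peaks, at 11.2, 53.7 and 58.2 kb, with fold enrichments of 32.1, 150 and 49.3.

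At Klf16 each factor had 1 peak, in different places. The Nan-KLF1 peak (chr10:80036621-80037020, fold enrichment 87.7) lay in an intron, 6.87 kb above the gene's lower edge, and had A at position 4 of its motif. The KLF1 peak (chr10:80039805-80041182, fold enrichment 266) was a promoter peak, 0.315 kb outside the upper edge. These peaks did not overlap.

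At Sp4, an Sp factor best known from neurons that binds GC boxes, each factor had a promoter peak and a peak at the start of the gene. The promoter peaks were at a fold enrichment of 87.7 for Nan-KLF1 (chr12:119540247-119540689) and 557 for KLF1 (chr12:119540366-119541378), with summits 140 bp apart. The other pair was at 117 for Nan-KLF1 (chr12:119539351-119539800, classed as intron) and 276 for KLF1 (chr12:119539152-119540326, classed as UTR), with summits 114 bp apart. By fold enrichment the KLF1 promoter peak was at percentile 99.2 of its list, and the Nan-KLF1 promoter peak at percentile 29.8 of its own. Tied peaks were given their average rank. Sp4 had no row in the 4sU table.

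At Klf1, Nan-KLF1 had 3 peaks and KLF1 had none. All 3 were classed as coding sequence: chr8:87425496-87426147 with a fold enrichment of 107, chr8:87426389-87427532 with 312 and chr8:87428546-87428955 with 78.0. They spanned 3460 bp, against a length of 3310 bp for the RefSeq gene. Coding sequence held 50 of the 2758 Nan-KLF1 peaks (1.81%), and Klf1 was the 1 gene with 3 of them; it was singled out after this was seen. Only the first of the 3 had a central motif, with C at position 4. The nearest KLF1 peak to these was 32.9 kb away and named for Mast1. Both lines carry a transgene with KLF1 coding sequence, and reads from it and from the Klf1 locus cannot be told apart in these lists.

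**Figure D4:**
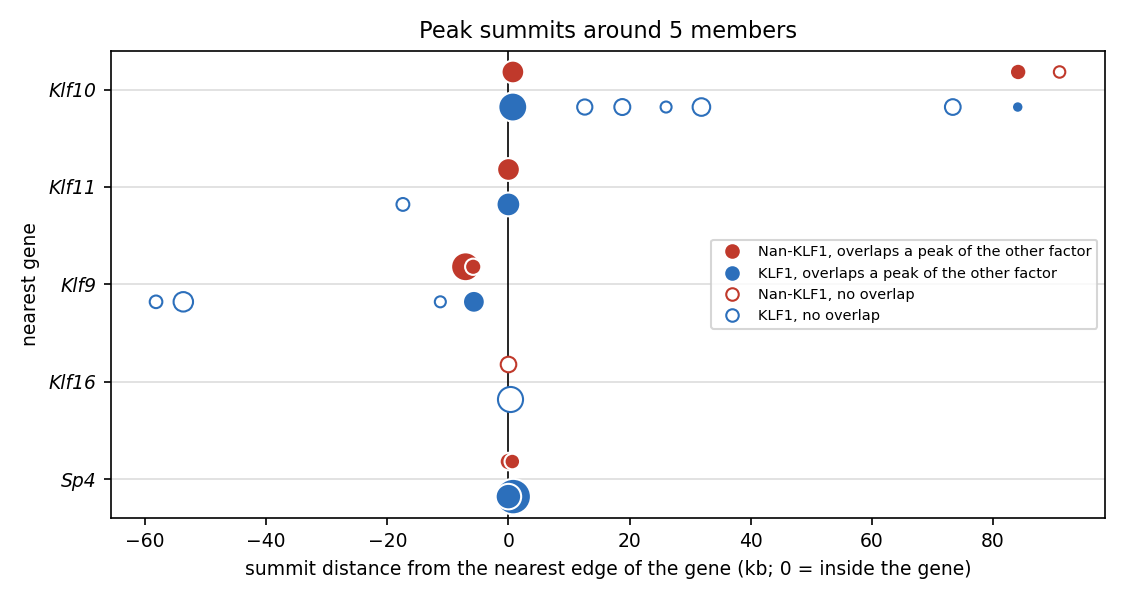
Peak summits around 5 members by distance from the nearest edge of the gene (kb, negative below the lower coordinate), Nan-KLF1 in red above KLF1 in blue; area grows with fold enrichment and filled points overlap a peak of the other factor by at least 1 bp. All Klf10 peaks lie on 1 side of the gene, out to 91.0 kb, and all Klf9 peaks on the other, out to 58.2 kb.

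Peaks of both factors overlapped by at least 1 bp for 7 of 12 Nan-KLF1 peaks of members (58.3%), against 44.8% of the whole Nan-KLF1 list. The same held for 6 of 16 KLF1 peaks (37.5%), against 22.8% of the whole KLF1 list. The count differs because the KLF1 peak near Klf9 covers both Nan-KLF1 peaks. The 12 Nan-KLF1 peaks include the 3 in the Klf1 coding sequence, where reads of the transgene cannot be told apart, and none of these overlapped a KLF1 peak. Under the intersection that the authors list, whose summits lie at most 50 bp apart, the number of shared member peaks was 2, those at Klf10 and Klf11. That is 16.7% of the Nan-KLF1 peaks of members, against 27.5% of the whole list, and 12.5% of their KLF1 peaks, against 14.0%. The share of members was thus above that of the lists under the 1 bp overlap and below it under the authors' intersection. The peaks at Klf10 and Klf11 were also the 2 of 7 overlapping Nan-KLF1 peaks whose central motif equalled that of the KLF1 peak.

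Binding and new RNA were set side by side. The 3 members that rose in both lines, Klf9, Klf10 and Klf11, each had overlapping peaks of both factors, as did 33.6% of the 289 genes of the table that rose in both. Klf2 and Klf6, which rose in K1-NanER and were not called in K1-ER, had no peak, as did 53.1% of the 448 genes with such calls. Klf16, which rose in K1-ER and was not called in K1-NanER, had peaks of both factors that did not overlap. Of the 299 genes with such calls 32.8% had overlapping peaks, close to the 33.6% of genes that rose in both. Around Klf6 no peak of either list lay within 150 kb, whatever gene it was named for. Around Klf2 there were 1 Nan-KLF1 peak and 3 KLF1 peaks within 150 kb, the nearest being an Ap1m1 intron peak of both factors 78.7 kb away.

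Among the other family genes, Klf13 was the nearest gene of 1 Nan-KLF1 peak, 87.5 kb from the gene, and of 6 KLF1 peaks, of which 1 was at the promoter (fold enrichment 155) and 1 in an intron (235). None of the Klf13 peaks overlapped between factors. Sp1 had 2 Nan-KLF1 and 4 KLF1 peaks. Both Nan-KLF1 peaks overlapped KLF1 peaks, at the promoter (fold enrichment 166 for Nan-KLF1 and 88.8 for KLF1, summits 35 bp apart) and in an intron (67.7 and 110, 49 bp apart). Sp2 had 1 Nan-KLF1 intron peak (175) and no KLF1 peak, and Sp3 had 1 distal KLF1 peak (104) and no Nan-KLF1 peak. The remaining 14 family genes, among them Klf3, a repressor of CACCC sites known in mouse erythroid cells, had no row and no peak in the tables used here.

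RefSeq promoter windows of build GRCm38.p6, 250 bases before to 50 after a gene's start, were found for 6 of the 8 members; Klf10 and Klf16 are named only. The letters CCNCNCCC, on either strand, stood in the windows of Klf2, Klf6, Klf11 and Sp4 and not in those of Klf1 and Klf9; 49.5% of 32851 windows held them. Leaving position 4 free, CCNNNCCC stood in 5 of 6 windows, against 70.6% of all; every match of the first form is also one of the second. The core CACCC stood in 4 of 6 windows, against 57.5% of all, and the GC box GGGCGG in 4 of 6, against 35.7%. The central motif of Klf10 and Klf11 stood in none of the 6 windows, against 5.33% of all. The 250 bases before the start are shown for the 4 windows with CCNCNCCC, in capitals on either strand, since Sp4 and Klf11 had peaks nearby and Klf2 and Klf6 had none. The peaks are on build mm9, and their place relative to these windows was not determined.

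Sp4, chr12:118301441-118301690, minus strand: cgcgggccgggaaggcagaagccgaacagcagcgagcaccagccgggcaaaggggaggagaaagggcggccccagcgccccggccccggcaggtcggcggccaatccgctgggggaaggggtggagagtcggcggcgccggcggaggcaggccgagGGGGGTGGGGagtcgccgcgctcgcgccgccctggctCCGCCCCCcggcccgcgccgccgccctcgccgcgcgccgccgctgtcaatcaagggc
Klf11, chr12:24651121-24651370, plus strand: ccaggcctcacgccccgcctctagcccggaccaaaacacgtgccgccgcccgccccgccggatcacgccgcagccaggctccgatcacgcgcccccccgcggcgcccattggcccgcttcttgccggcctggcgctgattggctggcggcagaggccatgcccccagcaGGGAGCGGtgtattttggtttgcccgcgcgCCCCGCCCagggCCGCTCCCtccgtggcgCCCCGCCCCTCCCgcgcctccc
Klf2, chr8:72318812-72319061, plus strand: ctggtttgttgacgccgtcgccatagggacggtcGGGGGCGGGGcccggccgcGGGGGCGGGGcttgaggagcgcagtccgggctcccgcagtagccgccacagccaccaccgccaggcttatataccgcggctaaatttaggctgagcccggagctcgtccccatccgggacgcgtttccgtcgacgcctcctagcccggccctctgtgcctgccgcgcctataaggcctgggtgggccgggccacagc
Klf6, chr13:5861239-5861488, plus strand: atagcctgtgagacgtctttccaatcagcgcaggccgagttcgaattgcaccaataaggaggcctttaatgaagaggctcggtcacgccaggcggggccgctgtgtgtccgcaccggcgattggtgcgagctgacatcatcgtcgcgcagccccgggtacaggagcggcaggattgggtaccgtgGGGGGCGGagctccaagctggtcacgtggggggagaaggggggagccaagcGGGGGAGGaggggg

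In fetal liver, Sp4 was the 1 member listed. Sp4 (chr12:119473406-119539913, mm9) had 4.25 FPKM in Nan/+ and 8.55 FPKM in wild-type livers, as the authors' deposited table gives it. It fell, with a log2 fold change of -1.01 (q = 0.0285) in the authors' deposited table. No gene of the liver table moved by less than 1 on the log2 scale; 24.6% of its genes fell, and 6 of these 195, Sp4 included, fell by no more than Sp4 did. In whole livers, fewer cells of a type and less RNA per cell cannot be told apart. None of the other 25 family genes had a row, so their levels in liver were not analysed here.

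Markers of other cells and of sex moved with this contrast. All 5 granulocyte markers rose, with a summed level of 2323 FPKM in Nan/+ livers against 383 FPKM in wild-type livers, and all 6 skeletal muscle markers fell, to 1.75 FPKM in Nan/+ livers against 43.5 FPKM in wild-type livers. Xist, the RNA of the silenced X chromosome and the marker of sex here, was in the authors' deposited table at 0.04 FPKM in Nan/+ and 25.1 FPKM in wild-type livers. The groups thus differed in this marker of sex. Both listed macrophage markers (of 6 symbols, with Adgre1 also under its older name Emr1) and the listed megakaryocyte marker (of 5) rose. No hepatocyte or endothelial marker was listed. Of 10 erythroid markers those listed were Hba-x and Hbb-bh1, globins of the embryo, and both rose. No listed marker was at 0 in either group. The part of these cells and of sex in the Sp4 value was not tested.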

How the data were processed

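Per the labels, ChIP, 4sU RNA and fetal liver RNA were sequenced. Build mm9, MACS 1.4.2 and TopHat2 2.0.10 were used per the submitters' processing notes. Which programs made FPKM, q values, peak genes and motifs is not stated there. The deposited tables hold FPKM as 1 value per group, log2 fold changes over K1 or wild type, and p-values and q values of the authors' own comparisons. In the deposited peak lists, fold enrichment is a ratio of ChIP to input made by the authors; the rank is the authors' score. The smallest deposited p-value was 5e-05. In K1, 101 genes share the lowest value, 0.1 FPKM, here called the floor.

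No model was fitted, and no per-sample value was used. Calls use the authors' q of at most 0.05. Peaks were shared when they overlapped by at least 1 bp. Peak positions are as listed; gene starts were raised by 1, which gave the RefSeq length for 6 of 9 family genes. Nothing in the labels says whether K1 replicates or livers came from separate cultures or litters. Functions for overlap and motif search were tested on simulated data. Named genes were the members, other family genes with a row or peak, the 2 genes nearest to each member by log2 fold changes, and called genes of the lists, up to 4 per list and comparison by size; where the TGF-beta list had 5 calls, all are named. For motifs and promoters the rule took members with a promoter peak (Klf10, Klf16 and Sp4); Klf2, Klf6, Klf9 and Klf11 were added after their values were seen. Some genes of the cofactor and TGF-beta lists are not reported here. Members and lists were chosen with earlier results of these data known. Python 3.11.15, pandas 2.3.3 and numpy 2.4.6 were used.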

Additional observations from a re-analysis of the deposited data

How the results depend on the processing

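No paired analysis was possible because the tables give 1 value per group, for which reason no replicate could be left out either. With a q of at most 0.01 the members called were 5 in K1-NanER and 4 in K1-ER as before, and 0 in fetal liver. A minimum of 1 FPKM in the higher group changed none of these 3 counts. Adding 1 FPKM to both levels cannot turn the sign of a fold change, so the 13 deposited ones of members could differ in size alone. For Klf10 in K1-NanER the log2 fold change went from 6.67 to 6.31. That of Klf2, which rests on the floor, went from 4.99 to 1.92 in K1-NanER and from 2.87 to 0.65 in K1-ER. Shared member peaks numbered 2 in each list, down from 7 of Nan-KLF1 and 6 of KLF1, both when peak centres had to lie within 100 bp and under the authors' intersection, an alternative added after seeing the data; Klf11 was in both sets, with the Klf10 peaks further out in the first and at the promoter in the second. With overlap of 0.5 of the shorter peak the counts stayed at 7 and 6. At or above the median fold enrichment 6 Nan-KLF1 and 11 KLF1 peaks were left, and within 10 kb of the gene 10 Nan-KLF1 and 6 KLF1 peaks, with the coding sequence peaks of Klf1 counted as inside. On the gene's own strand alone, 29.1% of promoter windows held CCNCNCCC. Depth is unknown, so no low level can be given an interval.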

Other observations

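Other zinc finger factors that bind GC-rich or CACCC-like DNA also appeared in the 4sU table. Of 13 such genes 4 had a row. In K1-NanER 3 rose, beside 47.4% of the table, and in K1-ER 3 rose, beside 37.9%. None fell in either, beside 28.3% of the table in K1-NanER and 11.5% in K1-ER. With 4 genes from a list already chosen for change, these counts are a description only. Zbtb7a, a repressor of fetal globin genes in human cells, stood at 242 (K1-NanER), 515 (K1-ER) and 107 (K1) FPKM, and was called in K1-ER (q = 0.00804) but not in K1-NanER (q = 0.0657), in the authors' deposited table. Zbtb7b, a T-cell lineage factor, stood at 88.9 (K1-NanER), 144 (K1-ER) and 29.3 (K1) FPKM, and rose in both (q = 0.00213 for each), in the authors' deposited table. Vezf1 rose in both lines as well, with log2 fold changes of 1.88 in K1-NanER and 1.25 in K1-ER, and Zfp148 rose in K1-NanER, with 1.48, and had 0.96 in K1-ER (q = 0.112), in the authors' deposited table.

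Taf9, a subunit of the general transcription machinery, was on a list of cofactors known to bind Kruppel-like or Sp factors. For Taf9 the authors' deposited table gives 50.9 (K1-NanER), 32.9 (K1-ER) and 20.2 (K1) FPKM. It rose in K1-NanER (q = 0.0222) and was not called in K1-ER (q = 0.331) in the authors' deposited table.

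In fetal liver, Id1 of the TGF-beta list rose, at 43.1 FPKM in Nan/+ and 18.4 FPKM in wild-type livers, as the authors' deposited table gives it. In the authors' deposited table the ligand Tgfb2 fell to 0.930 FPKM in Nan/+ livers, against 2.91 FPKM in wild type. Csf2rb, whose pair of fold changes in the lines was nearest to that of Klf11, rose in Nan/+ livers over wild type, with a log2 fold change of 1.11 (q = 0.0182) in the authors' deposited table.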
